A study of Mus musculus with 18 samples.

Results

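The differentiation of Sam68 knockout cells was followed by ribosome profiling in 6 libraries of a series of 18. They are the 3 libraries of Sam68 KO cells after 10 days of embryoid body culture and the 3 libraries of the same line as stem cells at day 0, chosen by their titles. Sam68 (gene symbol Khdrbs1) is an RNA-binding protein of the STAR family, and the line carries its knockout in E14, a mouse embryonic stem cell line. The remaining 12 libraries come from unedited E14 cells (WT) and from E14 cells with a knockout of Quaking, a related STAR protein, at day 10 and day 0 with 3 libraries each. Both days of a line therefore share the genotype, and all cells received cycloheximide before lysis. The labels do not say how many clones stand for a knockout line, and the series calls the 3 libraries of a group biological triplicates.

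Ribosome profiling counts the short mRNA fragments that a ribosome shields from nuclease, so a gene's count reflects both how much of its mRNA is present and how often it is translated. Embryoid bodies are floating aggregates in which stem cells stop self-renewing and form early embryonic cell types side by side. A lower count in such a mixture can come from fewer cells of a type or from less RNA per cell, which cannot be told apart in bulk libraries. STAR proteins bind single-stranded RNA and are known for regulating splicing, stability and translation of their targets.

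Features carry versioned Ensembl IDs, which the files do not pair with gene names. No ID could be matched to a symbol through the reference table used here, so features are given by ID and without a function. The gene encoding Sam68 and the markers of stem cells were therefore not checked, and genotype and cell type rest on the labels.

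Sam68 KO libraries held 7885195, 3957007 and 2196924 counts at day 10 and 4629369, 8062158 and 5366374 counts at day 0. CPM values are counts relative to the scaled library size, without correction for gene length. A floor of 3 counts in a library was worth 0.377, 1.43 and 2.78 CPM in day 10 replicates 1, 2 and 3, and 0.519, 0.301 and 0.443 CPM in the day 0 replicates, so day 10 replicates 2 and 3 resolved small amounts least. Floors and intervals cover counting error only.

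A few features took most of the counts in 2 of the day 10 libraries. The 10 largest features held 29.9% of the counts in day 10 replicate 1, 60.2% in replicate 2 and 64.4% in replicate 3, against 8.05%, 7.01% and 8.68% in the day 0 libraries. The 4 largest features made up 50% of replicate 2 and the 3 largest 50% of replicate 3, whereas 231 features were needed in day 10 replicate 1 and 667 to 701 in the day 0 libraries. There were 4 features that held over 5% of any Sam68 KO library, and each of them was higher at day 10 than at day 0, with log2 fold changes between 3.54 and 6.97 (edgeR's quasi-likelihood test, adjusted p between 0.000293 and 0.0237). The largest of them in day 10 replicate 1 took 19.4%, 17.95% and 11.4% of the counts at day 10, against 3.09%, 1.95% and 3.18% at day 0. The largest in day 10 replicate 3 took 1.31%, 7.83% and 20.9% at day 10, against 0.375%, 0.318% and 0.154% at day 0, and so was high mainly in 2 of the 3 libraries. Whether these features are translated mRNA was not determined, since no ID was matched to a gene here. Their part in the other results was not tested beyond the fits without them.

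**Figure D1:**
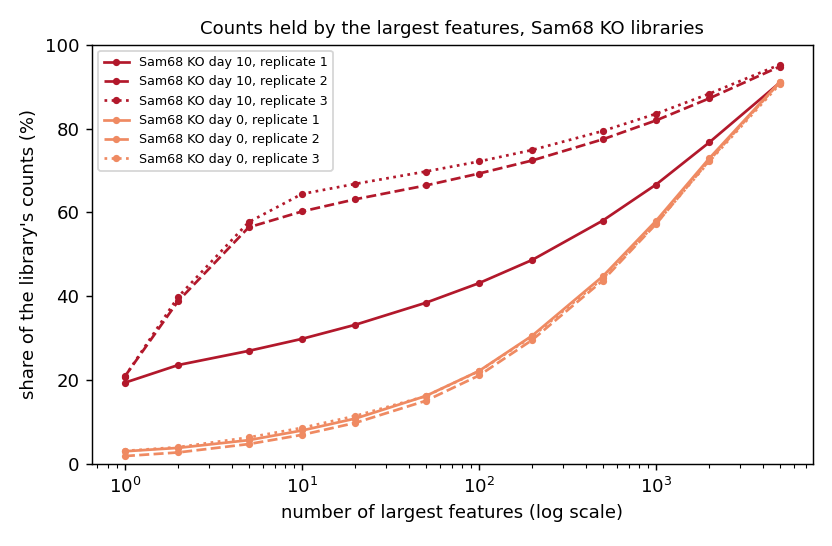
Share of a library's counts (%) held by its largest features, against the number of features on a log axis; each line is 1 Sam68 KO library, day 10 in dark red and day 0 in orange. Day 10 replicates 2 and 3 start highest and hold 60.2% and 64.4% in 10 features, replicate 1 holds 29.9%, and the 3 day 0 libraries lie together at 7.01% to 8.68%.

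Most of the features tested changed during the 10 days. Of 13701, 4775 (34.9%) were higher at day 10 than at day 0 and 4173 (30.5%) were lower (edgeR, adjusted p below 0.05 over all features tested). Gains were steeper than losses. The median log2 fold change was 1.92 among the features that rose and -1.32 among those that fell. A change of at least 2-fold was reached by 3773 that rose and 2748 that fell, of at least 4-fold by 2286 and 1044, and of at least 16-fold by 849 and 247. At least 16-fold was also reached by 881 and 252 in WT cells, and by 1141 and 338 in Quaking KO cells. The floor was worth up to 2.78 CPM in Sam68 KO libraries of day 10 and up to 0.519 CPM at day 0, so falls could be followed less far. Its part in the difference was not tested. The 3 day 10 values lay entirely above the 3 day 0 values for 4535 of the features that rose, and entirely below them for 4012 of those that fell. Over all 13701 features, called or not, 5078 lay above and 4501 below without overlap. The calls use the same values, so the lack of overlap among them is a description.

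The direction of change differed with how strongly a feature was counted. In the tercile of features with the lowest mean CPM, at most 9.14 over the 6 libraries, 1669 rose and 785 fell, 53.7% of that tercile in all. In the tercile with the highest mean, from 35.1 CPM up, 1346 rose and 2177 fell, 77.1% in all. Among the features kept by the filter, those that rose were thus the larger number in the lowest tercile and those that fell in the highest. A feature with a low mean can pass that filter through only some of the libraries. The split was not repeated without the filter. The lowest tercile also held 1176 of those that rose at least 4-fold, against 457 in the highest.

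The sequencing pool changed with the day. Sam68 KO cells at day 10 were sequenced in pool MIX_3, together with Quaking KO at day 10, and Sam68 KO cells at day 0 in pool MIX_2, together with WT at day 10. Within the line, pool and day cannot be told apart. An additive model of line, day and pool over all 18 libraries gave 1 day effect for all lines. It called 2654 higher and 2916 lower, and 37 of these calls had the opposite direction to the Sam68 KO comparison. Its terms use up all 6 groups, so its pool terms stand for differences of the day effect between lines. Its day effect is that of Sam68 KO plus that of WT minus that of Quaking KO. The model therefore cannot separate pool from line, and its counts do not measure a pool effect. The dominated libraries, those with over 40% of their counts in 10 features, were Sam68 KO day 10 replicates 2 and 3 and WT day 10 replicate 3. Without these 3 libraries 4307 rose and 3726 fell, of which 4031 and 3453 were among the calls with all libraries. That fit holds 1 Sam68 KO library at day 10, which is assumed to vary like the libraries of the other groups.

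**Figure D2:**
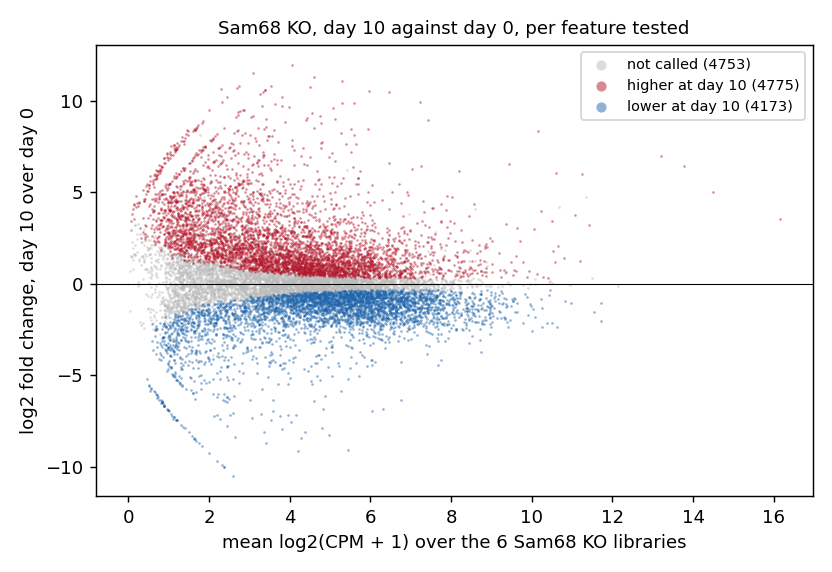
Log2 fold change of day 10 over day 0 in Sam68 KO cells (vertical axis) against mean log2(CPM + 1) over the 6 libraries (horizontal axis), 1 point per feature tested. The 4775 features higher at day 10 are red, the 4173 lower are blue and the rest grey; gains extend further from 0 than losses.

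Counts moved from the features that fell to the features that rose. The features that were higher at day 10 held 63.2%, 79.4% and 78.7% of all counts in day 10 replicates 1, 2 and 3, against 17.4%, 16.3% and 17.1% in the day 0 replicates. Those that were lower held 20.7%, 9.95% and 9.71% at day 10, against 63.5%, 63.8% and 62.0% at day 0. These shares describe the choice of the features. In WT libraries, which did not enter the Sam68 KO contrast, all features that rose in Sam68 KO together held 62.9%, 63.5% and 77.0% at day 10. At day 0 they held 19.6%, 23.4% and 19.9%. The 77.0% is that of WT day 10 replicate 3, a dominated library.

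The feature with the largest gain, by the rule for named features, was ENSMUSG00000038624.13. It had 318, 289 and 213 CPM in Sam68 KO cells at day 10, against no count in day 0 replicates 1 and 3 and 0.100 CPM, a single count, in day 0 replicate 2. The ratio of the summed counts was 6801, with a 95% counting interval of 1220 to 268693 (edgeR adjusted p = 1.94e-09). All 3 day 10 libraries were thus high and all 3 day 0 libraries at or near 0. In WT cells it had 438, 410 and 186 CPM at day 10 and no count at day 0. Quaking KO cells reached 59.4, 68.7 and 79.6 CPM at day 10, below each Sam68 KO library, and had no count at day 0. The day effects of the 2 knockout lines were not called different (Sam68 KO minus Quaking KO 0.52, SE 1.46, edgeR adjusted p = 0.885).

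The next was ENSMUSG00000024029.4, with 76.6, 81.7 and 58.3 CPM in Sam68 KO cells at day 10 and no count in any day 0 library. The gain was at least 171-fold against the floor of 3 counts per library (edgeR adjusted p = 2.21e-14). The WT libraries gave close values, with 77.8, 70.4 and 72.8 CPM at day 10 and 1 count over the 3 day 0 libraries. In Quaking KO cells at day 10 it had 7.42, 15.7 and 10.9 CPM, again below every Sam68 KO library. With no day 0 count in either knockout line, the day effects could not be usefully compared (Sam68 KO minus Quaking KO 2.58, SE 3182).

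Among the features that fell, ENSMUSG00000025056.4 changed most. It had 0.252, 0 and 1.85 CPM in Sam68 KO cells at day 10, against 218, 225 and 220 CPM at day 0 (log2 fold change -9.14, SE 0.44, edgeR adjusted p = 8.73e-13). The 4 counts that remained at day 10 lay in replicates 1 and 3. ENSMUSG00000000730.13 had 1.26, 1.43 and 1.85 CPM at day 10, against 698, 850 and 747 CPM at day 0 (log2 fold change -9.10, SE 0.68, edgeR adjusted p = 6.40e-08). For both, the day 0 libraries lay close together and far above every day 10 library. In WT cells the second of them had 1.80, 5.98 and 30.5 CPM at day 10, against 468, 500 and 527 CPM at day 0. The 30.5 CPM stand for 13 counts in WT day 10 replicate 3, a dominated library. At day 10 the values of the lines overlapped and were not called different (edgeR adjusted p = 0.606). The day effect of this feature was not called different between the lines either (Sam68 KO minus WT -2.70, SE 0.90, edgeR adjusted p = 0.353).

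A group of features was close to silent on 1 of the days. There were 55 with at most 3 counts over the 3 day 0 libraries and at least 10 CPM in every day 10 library, 7 of them with no day 0 count. Their median level at day 10 was 29.3 CPM and the highest 273 CPM. The reverse held for 25 features, 6 of them with no day 10 count, with a median of 23.5 CPM at day 0 and a highest level of 87.6 CPM. The features were chosen by the Sam68 KO values, and values of the other lines did not enter that choice. The calls in all lines share 1 estimate of spread, and Quaking KO cells of day 10 shared pool MIX_3. The share over all features tested is not matched to features picked for an extreme change. All 55 gained features were also higher at day 10 in WT and in Quaking KO cells, where 34.9% and 34.7% of all features tested were higher. All 25 lost features were also lower in both lines, where 30.1% (WT) and 29.4% (Quaking KO) of all features were lower. None of the 55 had a day effect called different from WT or from Quaking KO, where 0.431% and 11.3% of all features were. Of the 25, 1 was called different from WT and 2 from Quaking KO. Where both lines have counts near 0 on the same day, the difference of day effects is poorly estimated. ENSMUSG00000024029.4, without a day 0 count in either knockout line, had an SE of 3182 against Quaking KO. The few calls are therefore not read as equal day effects.

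**Figure D3:**
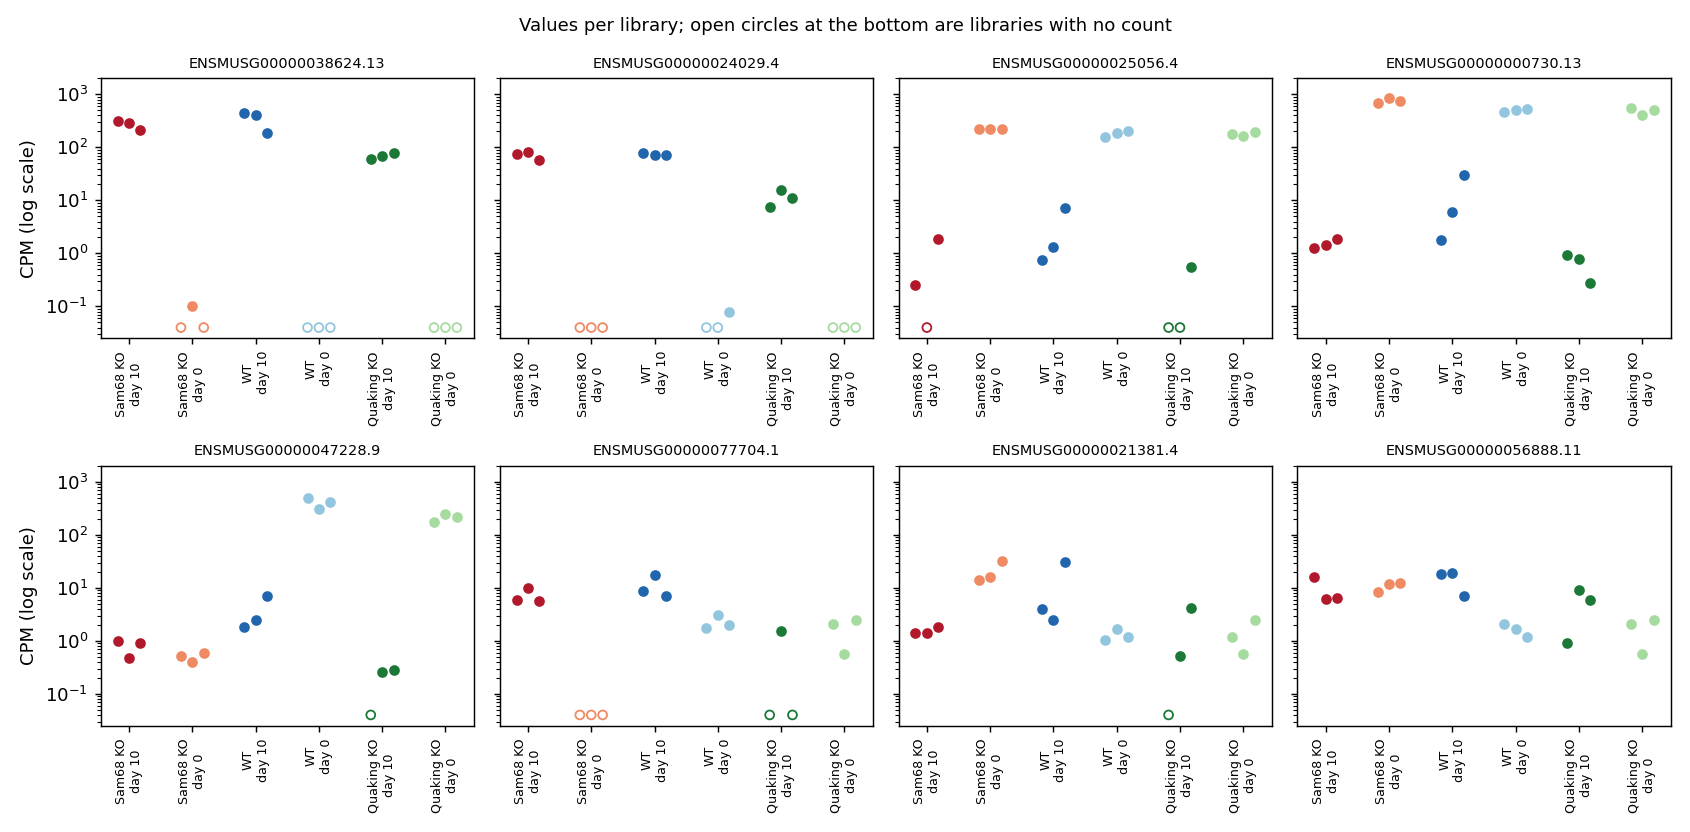
CPM on a log axis in every library of the 6 groups, day 10 left of day 0 within each line, for 4 features with the largest day effects (top) and 4 whose day effect differed from WT (bottom). Open circles at the bottom mark libraries with no count; ENSMUSG00000047228.9 is near 1 CPM in all Sam68 KO libraries, against 312 to 493 CPM in WT at day 0.

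Cell-cycle markers are 1 gene group that could be formed from Ensembl IDs. G1 is the growth phase before DNA replication, S is replication, and G2/M covers preparation for division and mitosis. The lists hold genes that lead marker pairs of only 1 phase in a published set of mouse marker pairs. Of 29 G2/M features tested, 21 fell and 2 rose, with a median log2 fold change of -0.77 and values from -7.26 to 1.00. Over all features tested 30.5% fell and 34.9% rose, with a median of 0.11. The CPM of the G2/M features summed to 2024, 1990 and 1977 in the day 10 replicates, against 4528, 4514 and 3951 at day 0, with no overlap. Of 11 G1 features, 6 fell and 1 rose (median -1.63), and their CPM summed to 981, 1014 and 1103 at day 10 and 2944, 3166 and 2837 at day 0. The S list did not lean 1 way, with 12 of 35 higher and 10 lower (median -0.02), although its summed CPM of 1653, 1554 and 1553 at day 10 lay below the 2009, 2014 and 1767 at day 0. No G1 or G2/M feature and 1 S feature had a day effect called different from WT. Against Quaking KO, the numbers called different were 0 of the 11 G1, 4 of the 35 S and 2 of the 29 G2/M features. Over all features 0.431% were called different from WT and 11.3% from Quaking KO, so these counts are near the background.

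**Figure D4:**
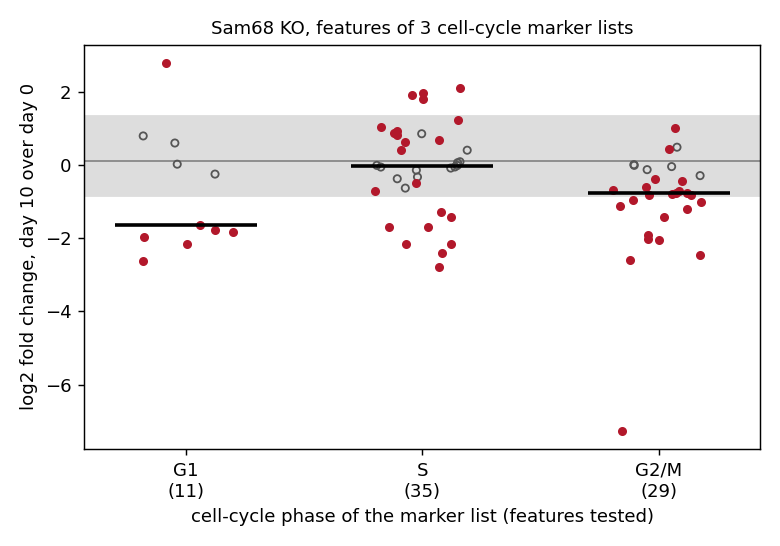
Log2 fold change of day 10 over day 0 in Sam68 KO cells for the tested features of the G1 (11), S (35) and G2/M (29) marker lists; filled points passed the test, open points did not, and black bars are medians. The grey band spans the quartiles of all 13701 features, -0.85 to 1.33, with its median of 0.11; the G1 and G2/M medians lie below the all-feature median.

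The time course of Sam68 KO cells was then set against that of WT cells, to ask whether differentiation differed without Sam68. The day effect, the log2 fold change between the days, was called different for 59 of 13701 features (0.431%), with 18 more positive and 41 more negative in Sam68 KO (interaction term, edgeR's quasi-likelihood test, adjusted p below 0.05). Of all features tested, 86.7% had a fitted day effect within 2-fold of that in WT. Among the 41, 26 rose in both lines, less steeply in Sam68 KO, 4 fell in both, and 6 rose in WT without a call in Sam68 KO. Among the 18, 7 rose in both lines and 6 rose in Sam68 KO without a call in WT. Most of these features also differed between the lines at day 0: 16 of the 18 and 34 of the 41 were also called between Sam68 KO and WT at day 0, where 1.26% of all features were called, and 0 and 2 of them at day 10, where 0.175% were called. These calls use the same libraries as the interaction and are given as a description. The 2 time courses share no library, but pool MIX_2 held both Sam68 KO stem cells and WT cells of day 10, so pool and the interaction cannot be told apart.

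The feature with the most positive difference was ENSMUSG00000047228.9. It had 1.01, 0.478 and 0.926 CPM in Sam68 KO at day 10 and 0.519, 0.402 and 0.591 CPM at day 0. In WT it had 1.80, 2.44 and 7.05 CPM at day 10, against 493, 312 and 415 CPM at day 0. The 7.05 CPM of WT day 10 replicate 3, the shallowest of these libraries, stand for 3 counts, here and wherever that value is given. The feature was thus nearly absent from Sam68 KO stem cells and fell in WT, and the difference of the day effects was 8.25 (SE 0.73, edgeR adjusted p = 4.87e-07). When all libraries were thinned to the smallest total, the difference was 3.89 and no longer called (adjusted p = 1.00). It was also high in Quaking KO at day 0, with 171, 247 and 216 CPM.

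In the same direction, ENSMUSG00000077704.1 had 5.79, 10.0 and 5.56 CPM in Sam68 KO at day 10 and no count at day 0. In WT it had 8.70, 17.7 and 7.05 CPM at day 10, against 1.74, 3.07 and 2.02 CPM at day 0. The lines overlapped at day 10 and differed at day 0. The fitted difference was 5.75 (SE 1.29, edgeR adjusted p = 0.0484), and it rests on a group without counts. The call was lost on leaving out any 1 of the 12 libraries except WT day 10 replicates 2 and 3, with adjusted p of 0.0510 to 0.186.

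Of those more negative in Sam68 KO, ENSMUSG00000021381.4 had 1.38, 1.43 and 1.85 CPM at day 10, against 14.2, 15.7 and 32.4 CPM at day 0. In WT it had 4.05, 2.44 and 30.5 CPM at day 10, against 1.02, 1.68 and 1.16 CPM at day 0. It fell in Sam68 KO and was higher at day 10 in WT, where the highest value was that of the dominated library, replicate 3 (difference -6.09, SE 1.19, edgeR adjusted p = 0.0374). It was past the threshold without WT day 10 replicates 2 or 3 or Sam68 KO day 0 replicate 1, and not without any other of the 12 libraries (adjusted p of 0.0620 to 0.132). ENSMUSG00000056888.11 had 15.7, 6.21 and 6.48 CPM at day 10 and 8.31, 11.6 and 12.4 CPM at day 0 in Sam68 KO, values that overlap. In WT it had 18.3, 19.1 and 7.05 CPM at day 10, against 2.03, 1.68 and 1.16 CPM at day 0 (difference -3.43, SE 0.61, edgeR adjusted p = 0.00772).

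How many features differed from WT depended on single libraries. The count of 59 was 25 without Sam68 KO day 0 replicate 2 or replicate 3, 16 without Sam68 KO day 10 replicate 2 and 31 without day 10 replicate 3. It was 27 and 28 without WT day 0 replicates 2 and 3, 21 and 39 without WT day 10 replicates 1 and 2, and 96 without WT day 10 replicate 3.

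Against the other knockout line the time course differed at more features. The day effect of Sam68 KO was called different from that of Quaking KO for 1551 features (11.3%), 637 more positive and 914 more negative, with 72.0% of all features within 2-fold. Of the 914, 360 rose in both lines, less steeply in Sam68 KO, 212 rose in Quaking KO without a call in Sam68 KO, and 62 fell in Sam68 KO while rising in Quaking KO. Of the 637, 181 rose in Sam68 KO without a call in Quaking KO, 140 fell in both, 121 rose in both, and 61 rose in Sam68 KO while falling in Quaking KO. Both day 10 groups were sequenced in pool MIX_3, but the day 0 groups in pools MIX_2 (Sam68 KO) and MIX_1 (Quaking KO). Pool and the interaction therefore cannot be told apart here either. Since both interactions use the Sam68 KO libraries, their lists were not set against each other.

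The features that set the 2 knockouts furthest apart included ENSMUSG00000046546.3. It had 4232, 74824 and 12041 CPM in Sam68 KO at day 10, against 153, 66.2 and 56.9 CPM at day 0. In Quaking KO it had 93.7, 51.6 and 614 CPM at day 10, against 2715, 447 and 3578 CPM at day 0. It thus rose in Sam68 KO, with the day 10 libraries spread over more than a 10-fold range. In Quaking KO it was called lower at day 10 (log2 fold change -3.14, SE 1.26, edgeR adjusted p = 0.0445). The Quaking KO days overlapped, since 614 CPM at day 10 lay above 447 CPM at day 0. The difference of its day effects was 11.51 (SE 2.01, edgeR adjusted p = 0.00285). In WT it had 3828, 5494 and 12262 CPM at day 10, against 886, 4420 and 1875 CPM at day 0, so the days overlapped. Its day effect was not called different between Sam68 KO and WT (difference 6.78, SE 1.80, edgeR adjusted p = 0.197).

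Among the features with a more negative day effect in Sam68 KO was ENSMUSG00000024737.2, which rose in Quaking KO and in WT and was not called in Sam68 KO. It had 0.252, 1.91 and 1.85 CPM in Sam68 KO at day 10, against 0.519, 0.100 and 0.295 CPM at day 0. In Quaking KO it had 31.5, 36.7 and 38.7 CPM at day 10 and no count at day 0, a gain of at least 30.1-fold against the floor. In WT it had 2.25, 4.43 and 0 CPM at day 10, against 0, 0 and 0.0776 CPM at day 0 (log2 fold change 5.61, SE 0.84, edgeR adjusted p = 4.27e-06). The 0 lies in WT day 10 replicate 3, where the floor of 3 counts is worth 7.05 CPM. The Sam68 KO and WT day effects were not called different (difference -4.06, SE 1.33, edgeR adjusted p = 0.295). All Quaking KO day 10 libraries lay above all Sam68 KO libraries (Sam68 KO minus Quaking KO difference -8.92, SE 1.80, edgeR adjusted p = 0.00213). The call against Quaking KO was lost when all libraries were thinned to the smallest total (difference -4.03, adjusted p = 1.00).

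**Figure D5:**
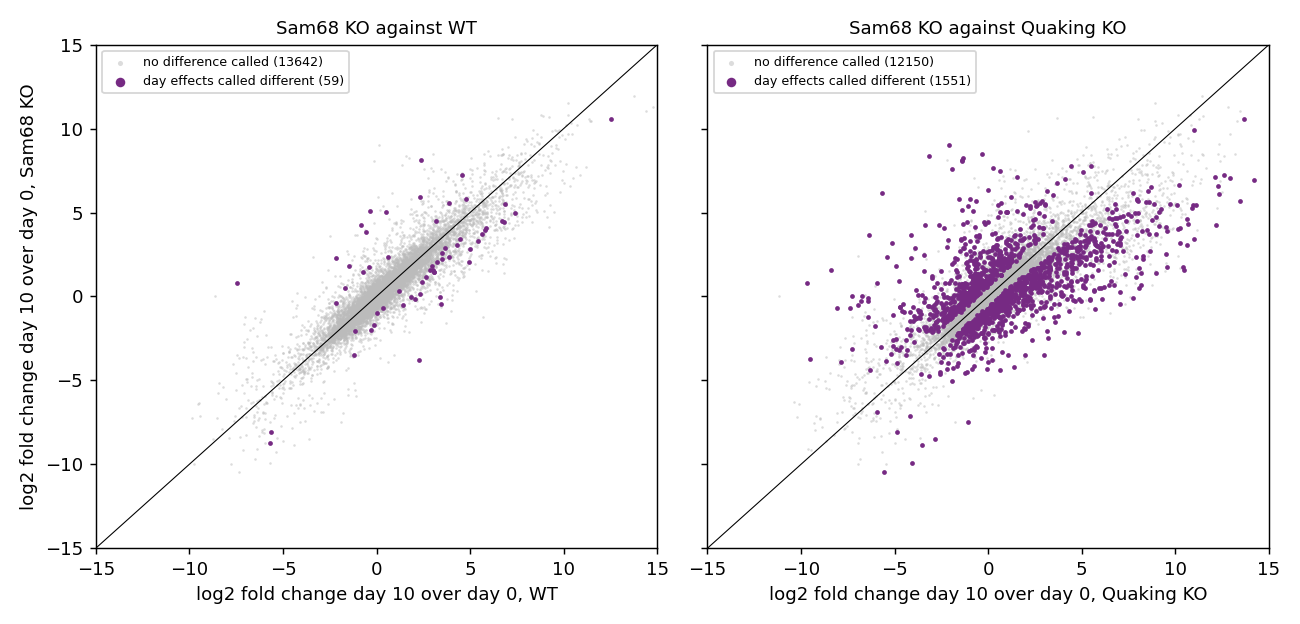
Log2 fold change of day 10 over day 0 in Sam68 KO cells (vertical axis) against that in WT (left) and in Quaking KO cells (right), 1 point per feature tested, with the line of equal change. Purple points are features whose day effects were called different, 59 against WT and 1551 against Quaking KO.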

How the data were processed

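The submitters' processing notes list Bowtie2, STAR 2.5.3a and bcl2fastq 2.17.1.14, and the builds mm10 and GRCm38. The program, annotation release and strand setting used for counting were not given in the sources used here. Reads of overlapping, antisense or near-identical genes therefore cannot be told apart. The deposited unit is raw counts per Ensembl ID, 1 file per library, in whole numbers. Testing used the robust quasi-likelihood method of edgeR 4.0.16 in R 4.3.3, TMM scaling and edgeR's filter by group, which kept 13701 of 33167 features with any count. A single model with group means covered the 18 libraries, and p-values were adjusted by Benjamini-Hochberg over all 13701. Each SE is the absolute log2 fold change or difference divided by the square root of the test's F statistic. It was not taken from the fit directly. P-values rest on the spread between the 3 libraries of each group, pooled over the groups and moderated across features.

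Named features of the day comparison were past the threshold, with no overlap of replicates and at least 50 CPM in the higher group. For interactions the rule was the threshold and at least 10 CPM in the highest group, with no condition on overlap. They were ranked by log2 fold change or difference, with at most 2 named per direction, since IDs without names carry little meaning; the 4 features over 5% of a library are described without ID. The 32 lists fixed by gene symbol and the protein-coding alternative could not be run without names. Members and lists, including the cell-cycle lists (scran 1.30.0, ID versions removed), were chosen with earlier results of these data known. Alternatives were DESeq2 1.42.0, scaling by RLE or the upper quartile, testing without the filter, a fit of the compared groups alone, blocks for replicate or pool, thinning to the smallest library, and leaving out dominated libraries or each library; leaving out the features over 5% of a library was added after seeing the data. Replicates differed beyond sampling noise, with chi-square over its degrees of freedom at 11.9 or more in the Sam68 KO pairs. Methods were tested on simulated data.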

Additional observations from a re-analysis of the deposited data

Results flagged for a closer look

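The named features whose day effect was called different between lines by the interaction test are listed as differences of log2 fold changes. Against WT, the differences were 8.25 for ENSMUSG00000047228.9, 5.75 for ENSMUSG00000077704.1, -6.09 for ENSMUSG00000021381.4 and -3.43 for ENSMUSG00000056888.11. Against Quaking KO, they were 11.85 for ENSMUSG00000037406.7, 11.51 for ENSMUSG00000046546.3, -8.92 for ENSMUSG00000024737.2 and -8.61 for ENSMUSG00000034652.12.

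ENSMUSG00000037406.7 had 0.629, 34.9 and 11.1 CPM in Sam68 KO at day 10, against 0.173, 0 and 0.443 CPM at day 0, and its highest values lie in the 2 dominated libraries. In Quaking KO it had no count at day 10 and 0.298, 0 and 3.12 CPM at day 0 (SE of the difference 3.28, edgeR adjusted p = 0.0358). Leaving out day 0 replicate 3 or day 10 replicates 2 or 3 of Quaking KO, or any Sam68 KO day 0 library, ended the call (adjusted p of 0.0508 to 0.364). It also ended without the dominated libraries, which leaves 1 Sam68 KO library at day 10 (difference 7.48, adjusted p = 0.136), and with only the compared groups (11.57, adjusted p = 0.122).

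ENSMUSG00000034652.12 had 1.38, 1.43 and 1.85 CPM in Sam68 KO at day 10, against 0, 0.100 and 1.18 CPM at day 0. In Quaking KO it had 29.7, 25.3 and 46.3 CPM at day 10 and no count at day 0 (edgeR adjusted p = 0.00602). Without Sam68 KO day 0 replicate 3 the call was lost (adjusted p = 0.189). For features without counts in a group the fitted difference depends on the model's prior count and is no bound.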

How the results depend on the processing

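The 4775 higher and 4173 lower features of the day comparison stayed within 1.5 times under all alternatives but 1: with pool as a block the higher count was 2654. The pool model mixes the day effects of all lines, so its counts are not those of Sam68 KO alone. Leaving out each Sam68 KO library gave 4185 to 4593 higher and 3870 to 4329 lower. Which direction was the larger turned in 3 settings: 4418 higher and 4850 lower with no filter, 4185 and 4242 without day 10 replicate 2, and 2654 and 2916 with pool as a block. With no filter the median of all features moved by -0.22 (log2). The 59 features that differed from WT were 129 with no filter on low counts, 123 with DESeq2, 36 with only the compared groups, 17 on thinning, 30 without the dominated libraries, where Sam68 KO day 10 has 1 library, and 16 to 96 on leaving out each library; without the features over 5% of a Sam68 KO library they were 40. The 1551 that differed from Quaking KO were 672 on thinning and 1147 to 1615 on leaving out each library. Fewer counts per library leave less power on thinning; the cause of the other shifts was not tested. The 4 named features of the day comparison kept their call in 60 of 60 values. Over all named features 190 of 226 values stayed past the threshold and 36 did not, with 0 reversed. On thinning the difference of ENSMUSG00000047228.9 was 3.89 (adjusted p = 1.00), that of ENSMUSG00000056888.11 -2.72 (0.331), that of ENSMUSG00000021381.4 -7.18 (0.180) and that of ENSMUSG00000024737.2 -4.03 (1.00), none past the threshold. The call of ENSMUSG00000077704.1 was also lost with upper quartile scaling (adjusted p = 0.0516), without the dominated libraries (0.182) and without the features over 5% of a library (0.0549). That of ENSMUSG00000021381.4 was lost with only the compared groups (0.0677). The number of lower G2/M features was 14 to 22 over the alternatives run.

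Replicate numbers share only a label. Deviations of same-numbered day 10 and day 0 libraries correlated across features at 0.12, -0.09 and 0.09, and not every library correlated best with its own number. With a replicate block, 4732 were higher, 4115 lower, 55 differed from WT and 1469 from Quaking KO.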
